A study of Mus musculus with 2 samples.

Results

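The set described here is the mouse proteasome gene family, taken as the autosomal protein-coding genes of GENCODE M21 (mm10) whose symbol starts with Psm, a letter from a to g and a digit. The rule found 49 of 20807 autosomal protein-coding genes, and the rule itself uses symbols and positions, with no measured value. Of these, 31 encode constitutive subunits: 7 of the alpha ring, 7 of the beta ring, 6 ATPases of the regulatory particle and 11 other subunits of that particle. The others are the immunoproteasome genes Psmb8, Psmb9 and Psmb10, the thymus gene Psmb11, the testis gene Psma8, 5 activator genes, the inhibitor gene Psmf1, and 6 genes of assembly chaperones. Psmc3ip matches the symbol rule only, since it encodes a partner of the meiotic recombinases and no subunit. The X-linked Psmd10 was left out by the rule.

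Chromatin accessibility was measured by DNase-seq, which sequences the ends that DNase I leaves where DNA in nuclei is exposed. Left cerebral cortex was taken from B6CASTF1/J males, a hybrid of C57BL/6J and CAST/EiJ, aged 8 to 10 months, and the labels name no treatment and no other genotype. The 2 libraries are labelled biological replicates 1 and 2, carry the same donor identifier, and form 1 group, so no contrast between conditions exists and no p-value was computed. Errors are SDs over these 2 libraries and may leave out variation between animals.

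The proteasome is the protease that degrades proteins marked with ubiquitin. Its barrel-shaped core particle has outer rings of alpha subunits, which gate the entry, and inner rings of beta subunits, of which beta1, beta2 and beta5 cut peptide bonds. The regulatory particle binds ubiquitin, removes it and unfolds the substrate with its ATPase ring. In immune cells and under interferon, Psmb9, Psmb10 and Psmb8 can replace the constitutive Psmb6, Psmb7 and Psmb5, and in neurons the proteasome takes part in synaptic protein turnover.

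Replicates 1 and 2 held 40705 and 39508 narrow peaks, the smaller of the deposited peak lists for each library, 71210 and 72217 peaks in the larger list, and 166128 and 174394 footprints, which are short stretches inside accessible DNA that DNase I cut less. Strength is the deposited signal value of a peak, and 100% of the strengths were whole multiples of a step of 0.00948 in replicate 1 and 0.00926 in replicate 2, within 0.02 of a step. The sources used here give neither read totals nor the scaling. Among cortex markers, all 4 pan-neuronal genes, 3 of 5 excitatory neuron genes and 3 of 4 astrocyte genes had a narrow promoter peak in both libraries, against 1 of 3 oligodendrocyte genes, 0 of 6 microglial genes, 0 of 4 lymphocyte genes, the thymic gene Foxn1 with none, and 1 of 3 germ-line genes (Dazl). Slc17a7 and Neurod2, defining genes of excitatory neurons, had none.

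The following stretches show promoter sequence at genes whose peak strengths are given below. They are the reference sequence of GRCm38.p6, read 5′ to 3′ on the gene's strand, and cover the part of the strongest promoter peak common to both libraries that lies before the gene's outermost annotated start. Capitals mark bases inside footprints of both libraries. The constitutive beta5 gene is followed by its immunoproteasome counterpart, by the strongest gene of the core particle, by an ATPase gene, a ubiquitin receptor gene and a core particle chaperone gene.
Psmb5, chr14:54618023-54618140, minus strand: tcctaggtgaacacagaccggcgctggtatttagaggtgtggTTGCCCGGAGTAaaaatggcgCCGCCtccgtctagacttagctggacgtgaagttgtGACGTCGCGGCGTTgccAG
Psmb8, chr17:34197561-34197720, plus strand: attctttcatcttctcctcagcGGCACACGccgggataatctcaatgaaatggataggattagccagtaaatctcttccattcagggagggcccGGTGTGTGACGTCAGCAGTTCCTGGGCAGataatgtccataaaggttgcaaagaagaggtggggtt
Psmb3, chr11:97703201-97703398, plus strand: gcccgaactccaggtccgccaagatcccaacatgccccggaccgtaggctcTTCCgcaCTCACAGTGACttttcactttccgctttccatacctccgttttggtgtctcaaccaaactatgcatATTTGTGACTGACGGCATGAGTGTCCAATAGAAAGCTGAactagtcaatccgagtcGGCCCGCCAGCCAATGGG
Psmc4, chr7:28050102-28050280, minus strand: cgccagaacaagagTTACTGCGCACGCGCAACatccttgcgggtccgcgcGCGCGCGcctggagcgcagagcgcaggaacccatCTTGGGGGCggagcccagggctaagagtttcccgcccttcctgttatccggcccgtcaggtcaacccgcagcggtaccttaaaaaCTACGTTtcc
Psmd4, chr3:95042615-95042740, minus strand: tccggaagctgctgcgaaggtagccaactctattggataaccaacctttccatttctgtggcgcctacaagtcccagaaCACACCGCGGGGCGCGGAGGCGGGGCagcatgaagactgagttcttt
Psmg3, chr5:139826886-139826960, minus strand: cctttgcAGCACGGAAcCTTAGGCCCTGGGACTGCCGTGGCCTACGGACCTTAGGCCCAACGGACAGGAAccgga
In these stretches both libraries marked 33 bases of 118 at Psmb5, 37 of 160 at Psmb8, 72 of 198 at Psmb3, 41 of 179 at Psmc4, 26 of 126 at Psmd4 and 62 of 75 at Psmg3.

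A narrow peak counted as a promoter peak of a gene when it reached within 1000 bp of any annotated transcript start, and the gene's strength is that of its strongest such peak. Promoter peaks were present in both libraries at 46 of the 49 genes (93.9%), where 56.0% of all autosomal protein-coding genes had them. All 31 constitutive subunits and the 3 immunoproteasome genes were among the 46. No gene of the set had a promoter peak in 1 library only. The tissue is a mixture of cells, so the share of cells with an open promoter and the degree of opening within a cell cannot be told apart here.

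The 3 genes without a promoter peak were Psma8, which encodes the alpha4-type subunit of the testis, Psmb11, the beta5-type subunit of cortical thymic epithelium, and Psme2b, a copy related to the activator gene Psme2. None of these had a peak of the larger list either, which 62.0% of all genes had in both libraries and again 46 of the set. The deposited table of false discovery rates listed no interval within 1000 bp of their starts in either library, as for 33.3% of all genes. Psmb11 (chr14:54621433-54629556) lies next to Psmb5 (chr14:54614119-54618022), so the beta5 gene with a promoter peak and the beta5 gene without it are neighbours. How reads that map to more than 1 place were treated is not given in the sources used here, which bears on Psme2b.

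Over the constitutive subunits the median strength was 3.27 in replicate 1 and 2.74 in replicate 2 (3.01 ± 0.374, SD, n = 2 libraries), against 2.80 and 2.44 (2.62 ± 0.249) over every gene that had promoter peaks in both. The difference between these means, about the size of the SD over the libraries, was not tested. That SD includes the shift between the libraries, and within each library the constitutive subunits had the higher median. The subunits of a single complex spread widely, from a mean of 1.61 for Psmc1 to 5.70 for Psmb3. At or above percentile 75 of strength in both libraries stood 8 of the 31 constitutive subunits and 9 of all 46 genes, beside 20.8% of all genes with a promoter peak. Percentile 50 was reached in both libraries by 16 of the 31 and 25 of the 46, beside 46.7%. None of the 31 lay under percentile 25 in both libraries, and of the 46 only Psme1 did, where 19.5% of all genes did.

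**Figure D1:**
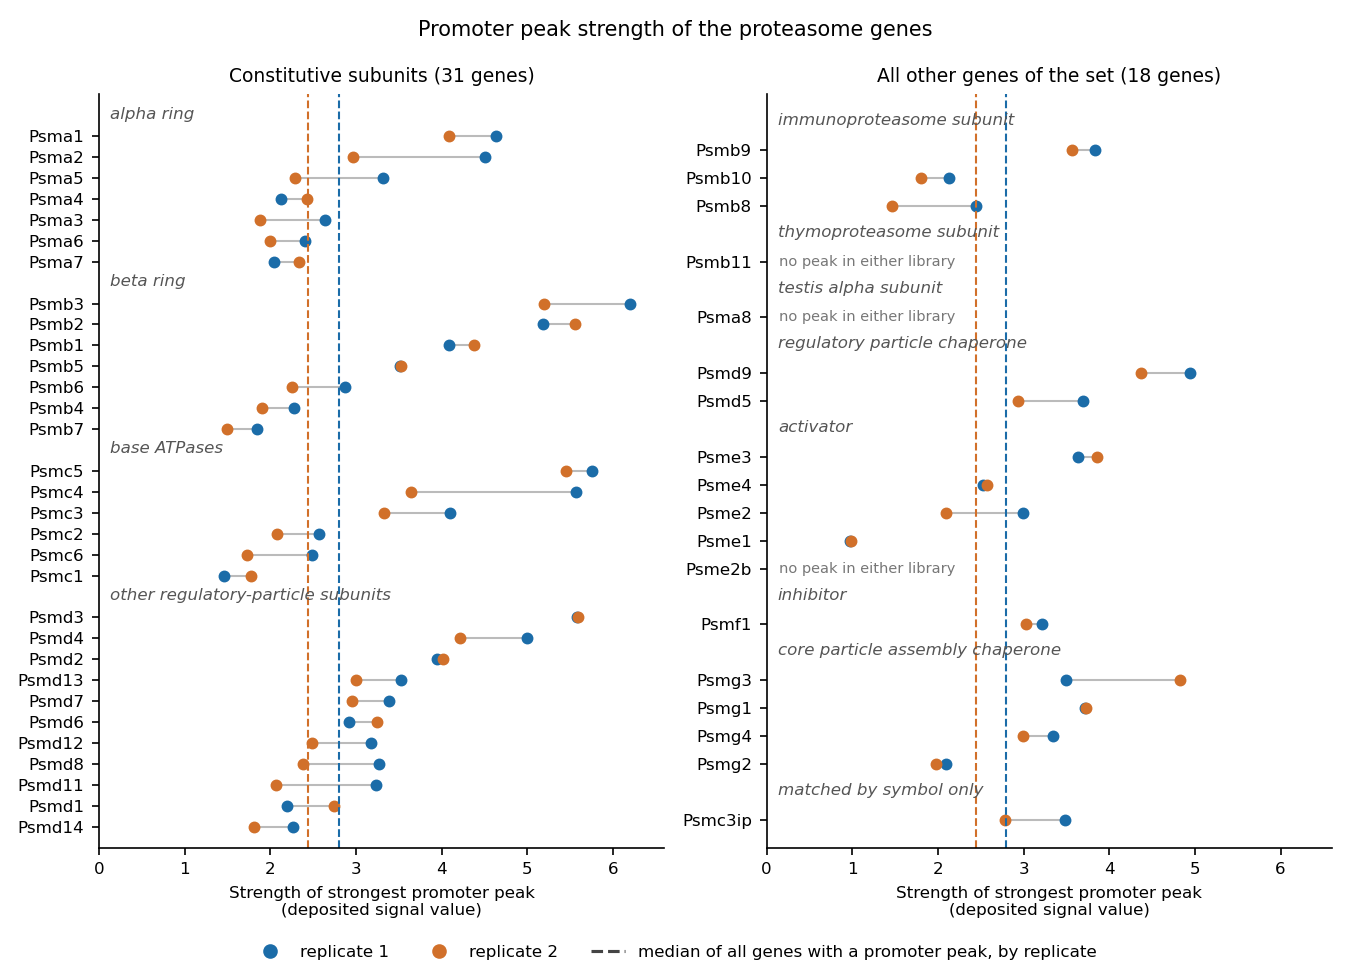
Strength of the strongest promoter peak (horizontal axis, deposited signal value) for each of the 49 genes, grouped by role, with replicate 1 in blue and replicate 2 in orange and a grey line joining them. Dashed lines mark the medians over all genes with a promoter peak, 2.80 in replicate 1 and 2.44 in replicate 2. Psmb3 has the highest mean, with 6.20 and 5.20, Psme1 lies farthest to the left with 0.976 and 0.981, and Psmb11, Psma8 and Psme2b have no peak.

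In the alpha ring, whose subunits form the gate of the core particle, the median was 2.64 and 2.34 in replicates 1 and 2. Psma1 was the highest, with 4.63 and 4.09, and Psma7, the constitutive alpha4 subunit, had the lowest mean, with 2.04 and 2.34. The values of Psma3, Psma4, Psma5 and Psma6 overlapped those of Psma7, and Psma3 was the lowest in replicate 2 with 1.88. Psma2 stood next to Psma1 in both libraries, but its values of 4.51 in replicate 1 and 2.97 in replicate 2 were 1.52-fold apart.

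The beta ring had a median of 3.51 and 3.53 and the widest range of the core particle. Psmb3, a beta subunit without catalytic activity, read 6.20 and 5.20, the highest mean of the whole set (5.70 ± 0.704). Psmb2 followed by mean, with 5.18 and 5.56, and was above Psmb3 in replicate 2, and Psmb1 came next with 4.08 and 4.38. The catalytic beta2 subunit Psmb7 was the lowest of the ring, with 1.85 and 1.49. Psmb3 also carried a peak centred 848 bp before its start (chr11:97702441-97702660) with strengths of 3.56 and 3.92, each above the all-gene median for promoter peaks, and with 5 footprints in either library.

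Among the ATPases, which unfold the substrate, Psmc5 was the highest with 5.75 and 5.45, and Psmc1 had the lowest mean, with 1.46 and 1.77. Psmc4 read 5.57 and 3.64 and Psmc3 4.10 and 3.33. Psmc2 read 2.57 and 2.08 and Psmc6 2.49 and 1.73, so that Psmc6 was just under Psmc1 in replicate 2. Thus 3 genes stood above the all-gene median in both libraries, while Psmc2, Psmc6 and Psmc1 were under it in both.

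The other subunits of the regulatory particle had a median of 3.27 and 2.95. Psmd3 had nearly the same strength in each library, 5.58 and 5.59, and was the highest. Psmd4, a ubiquitin receptor, had a mean of 4.61 ± 0.560 (SD, n = 2 libraries) with 4.21 in replicate 2, and Psmd2, a scaffold of the base, read 3.94 and 4.02. Psmd14, the deubiquitinase of the particle, had the lowest mean, with 2.27 and 1.81, although Psmd1 was lower in replicate 1, with 2.20 and 2.74. In replicate 2 the strongest peak of Psmd14 was only 60 bp wide and held 1 footprint, against 500 bp and 8 footprints in replicate 1.

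Of the regulatory particle chaperones, Psmd9 read 4.94 and 4.37 and Psmd5 3.69 and 2.93. The chaperones that assemble the core particle had a median of 3.41 and 3.36, and their means ran from Psmg3 with 3.49 and 4.82 to Psmg2 with 2.09 and 1.98. Psmg1 read 3.72 and 3.73, above Psmg3 in replicate 1. Psmf1, which encodes an inhibitor of the core particle, read 3.21 and 3.03. Psmc3ip, the gene matched by symbol only, read 3.48 and 2.78, inside the range of the subunits.

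The activators bind the ends of the core particle in place of the regulatory particle. Psme3, the nuclear activator, read 3.64 and 3.86, and Psme4 2.53 and 2.57. Psme1 and Psme2 encode the interferon-inducible activator, and their promoters differed. Psme1 had the lowest strength of the 46 genes, 0.976 and 0.981, with percentiles of 8.40 and 9.41 among all genes with a promoter peak. Psme2 read 2.99 and 2.09, but the midpoint of its strongest peak lay 478 bp before the nearest start in replicate 1 and 288 bp before it in replicate 2, within 1000 bp of a start of Rnf31, a ubiquitin ligase gene.

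The immunoproteasome genes were set beside the constitutive subunits they can replace. At beta1, the interferon-inducible Psmb9 read 3.83 and 3.57, and the constitutive Psmb6 read 2.87 and 2.25. Both values of Psmb9 exceeded both of Psmb6, by a ratio of 1.33 in replicate 1 and 1.59 in replicate 2. At beta5 the order was the opposite: Psmb5 read 3.51 and 3.53 and Psmb8 2.45 and 1.47, a ratio of 0.700 and 0.417 for Psmb8 over Psmb5. Psmb8 values lay apart from those of Psmb5, but also 1.67-fold apart from each other. At beta2, Psmb10 read 2.13 and 1.80 and Psmb7 1.85 and 1.49. Psmb10 was the higher within each library, by a ratio of 1.15 in replicate 1 and 1.20 in replicate 2, while the ranges of the genes over the libraries overlapped. At alpha4, Psma7 read 2.04 and 2.34 and Psma8 had no peak. These differences between genes were not tested.

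**Figure D2:**
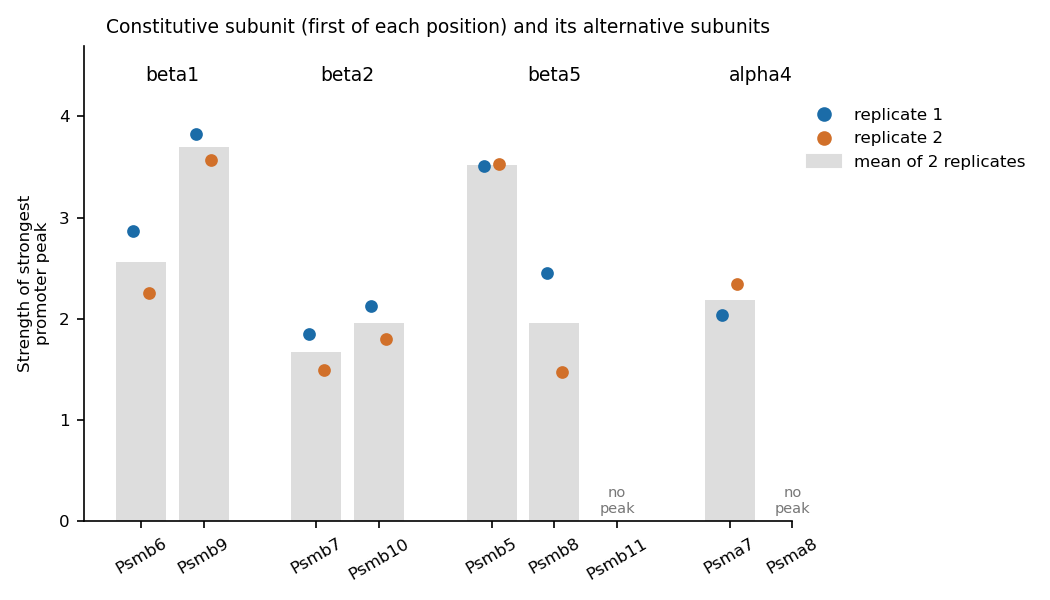
Strength of the strongest promoter peak (vertical axis) at 4 positions of the core particle, the constitutive gene first in each group. Bars are means of the 2 replicates and points the replicates: Psmb9 stands above Psmb6, Psmb8 below Psmb5, the points of Psmb10 and Psmb7 overlap, and Psmb11 and Psma8 have no peak.

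Psmb9 and Tap1, which encodes a subunit of the transporter that carries peptides into the endoplasmic reticulum, share an accessible region: the peak chr17:34187341-34187560 had the same bounds in both libraries and lay within 1000 bp of starts of both genes. It cannot be assigned to either gene. Its midpoint fell in a UTR of the Psmb9 gene model, and it held 4 footprints in each library, all of which overlapped between the libraries. A footprint just before an annotated Psmb9 start, not the outermost, holds a GC box, GGGCGG, shown in capitals.
Psmb9, chr17:34187374-34187403, minus strand: gccccttgcgcgatgatgGGGCGGggcctc
At Psmb8 the peak chr17:34197561-34197760, again with equal bounds in both libraries, sat at the outermost GENCODE start. The 250 bases before its RefSeq start (chr17:34197945-34198194) held 0 footprint bases in either library.

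At Psmb10 the strongest peak was inside the gene. It spanned chr8:105936921-105937380 in replicate 1 and chr8:105936921-105937800 in replicate 2, while the gene's outermost start is at position 105938444 on the minus strand. With that start alone, or with starts of protein-coding transcripts only, the strength was 1.10 in replicate 1 and 1.80 in replicate 2. The order against Psmb7 then turned in replicate 1. In replicate 2 the 1.80 was still that of the wide peak inside the gene, whose end reached within 1000 bp of that start. Replicate 2 peaks nearer to that start read 1.40, 0.815 and 0.824, all under the 1.49 of Psmb7. The mean log2 ratio of Psmb10 over Psmb7 was 0.24 with all starts and -0.24 with the outermost start. The 250 bases before the RefSeq start held 8 footprint bases in replicate 1 and 0 in replicate 2. Of the 6 microglial and 4 lymphocyte marker genes none had a narrow promoter peak in either library, and Aif1 had a peak of the larger list in replicate 1 (0.815). Slc17a7 and Neurod2 lacked a narrow peak as well, and the part of immune cells in the peaks of Psmb8, Psmb9 and Psmb10 was not tested.

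Most promoter peaks lay at a start. The midpoint of the strongest peak was within 200 bp of a start in both libraries for 41 of the 46 genes, beside 77.7% of all genes with a promoter peak. In replicate 1, 22 midpoints lay before the gene model, 18 in a UTR, 3 in another exon, 2 in an intron and 1 in coding sequence. Replicate 2 had 21, 12, 4, 4 and 5 in these classes. The strongest peak had over 50% GC and a ratio of observed to expected CpG over 0.6 in both libraries, as in CpG islands, for 40 of the 46, beside 80.4%; the others were Psmb9, Psmd1, Psmd12, Psmd14, Psme1 and Psme2. The median GC content was 61.7% and 62.1% in the set and 64.7% and 64.4% over all genes. Narrow peaks over 1000 bp from every annotated start, over the gene and 10000 bp on each side, were found in both libraries at 17 of the 49 genes, beside 31.2% of all genes.

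For 11 of the 46 genes the strongest peak lay within 1000 bp of the start of another protein-coding gene in both libraries, beside 21.6% of all genes with a promoter peak. Besides Psmb9 with Tap1 and Psme2 with Rnf31, the pairs were Psma2 with Mrpl32, Psma4 with AY074887, Psma7 with Ss18l1, Psmb1 with Tbp, Psmc2 with Dnajc2, Psmc5 with Ftsj3, Psmd13 with Sirt3, Psmg2 with Cep76, and Psmg3 with Gm26938. Tbp encodes the TATA-binding protein, Mrpl32 a mitochondrial ribosomal protein and Sirt3 a mitochondrial deacetylase. Strengths at these genes describe the shared region.

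The libraries were compared gene by gene over the set. Replicate 1 had the higher strength at 31 of 46 genes, beside 73.4% of all genes with a promoter peak. Strengths over 1.5-fold apart were found at 4 genes, Psma2, Psmb8, Psmc4 and Psmd11 (3.23 and 2.07), all higher in replicate 1, beside 6.43% of all genes in either direction. After division by each library's median peak strength, only Psmb8 of the 46 remained over 1.5-fold apart, beside 3.77% of all genes. The strongest peaks of the libraries overlapped at 45 of 46 genes, beside 95.1%, and at Psmd1 the libraries differed in which of 2 adjoining peaks was the stronger. Across the 46 genes, which share both libraries, the log2 strengths had a Pearson r of 0.880 and a Spearman rho of 0.881. Over all 11656 genes the values were 0.946 and 0.943.

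All 46 genes with a promoter peak had a footprint centred in it in both libraries, where 54.9% of all 20807 genes did, or 97.9% of the genes with a promoter peak. The set had 247 footprints in replicate 1 and 245 in replicate 2, with median widths of 11.0 and 10.0 bp and a range of 7 to 53 bp in both. Of these, 66.8% and 62.0% overlapped a footprint of the other library, beside 59.3% and 54.8% of the footprints in all promoter peaks. At 45 of the 46 genes, a share that was not computed over all genes, at least 1 footprint overlapped between the promoter peaks of the libraries. The exception was the ATPase gene Psmc6, with 8 and 3 footprints, where those of replicate 1 overlapped only replicate 2 footprints centred outside the narrower promoter peak of replicate 2. Psmb3 had 7 overlapping footprints covering 147 shared bases, and Psmd3 5 covering 100 bases.

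**Figure D3:**
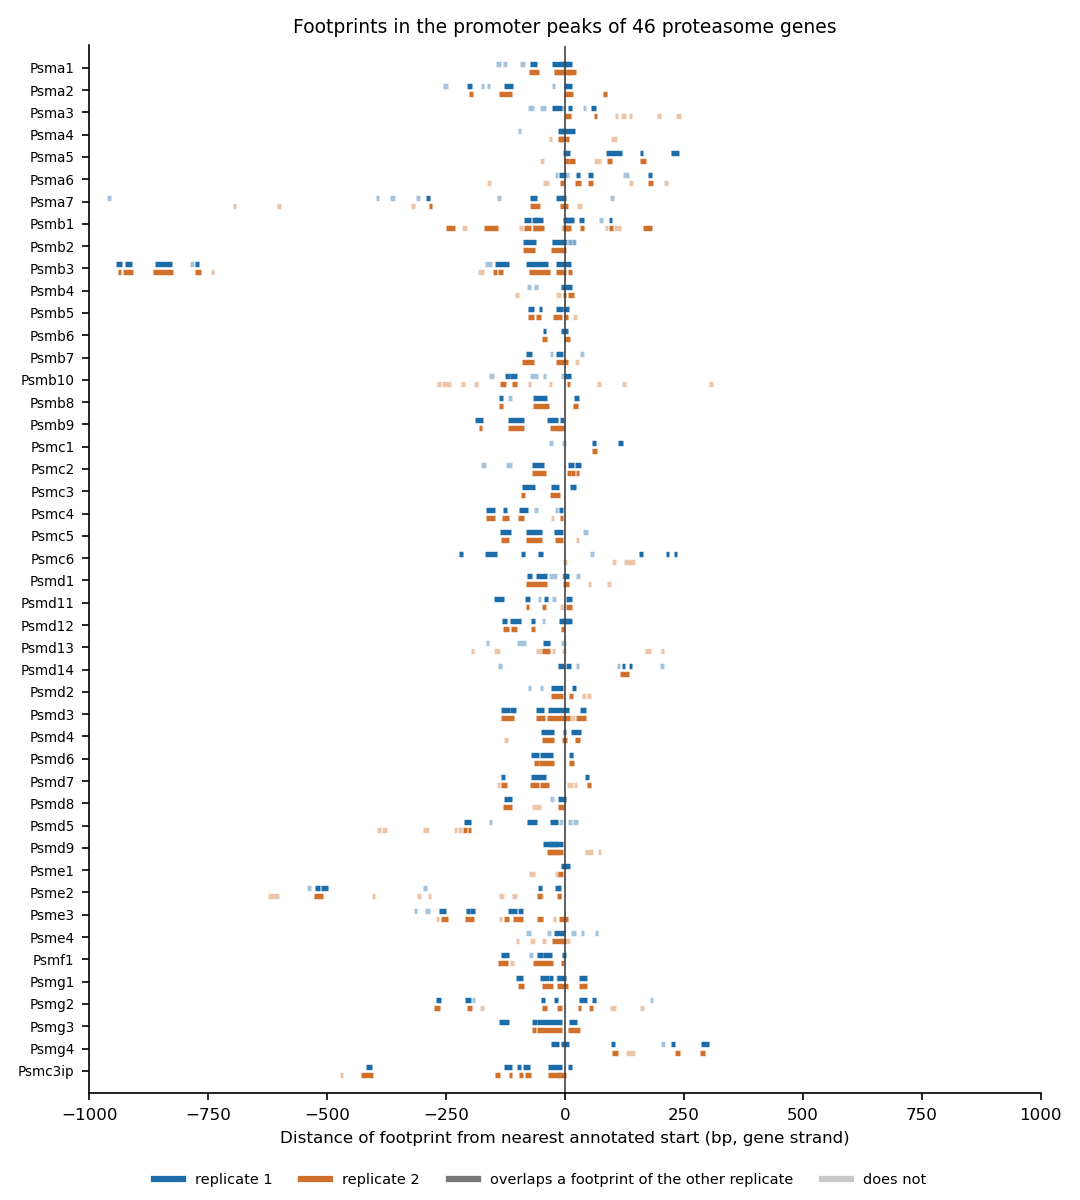
Footprints in the promoter peaks of the 46 genes, drawn to scale by distance from the nearest annotated start (horizontal axis, bp, negative before the start), with replicate 1 in blue above replicate 2 in orange. Strong colour marks footprints that overlap any footprint of the other replicate, in a promoter peak or not; most lie close to the start, and Psmb3 has a separate cluster in its peak 848 bp before the start.

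Motifs were searched on both strands in a window of 250 bases before to 50 after the RefSeq start, which was at hand for 41 of the 49 genes and for 15670 genes in all, and in the footprints. A footprint match had to have its centre in a promoter-peak footprint of both libraries, and is given for the 46 genes and for the 11656 genes with a promoter peak. A match is a description of the letters and not a measured binding event. At least 1 of the 14 motifs was in such footprints at 27 of the 46 genes, beside 47.4% of all genes with a promoter peak, or at 18, beside 37.2%, when the whole match had to lie in the footprint.

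TGACNNNGC is the core of the antioxidant response element, which NFE2L1 and NFE2L2 bind with small MAF proteins and through which NFE2L1 is known to raise proteasome gene expression when proteasome activity falls. Windows of 6 of 41 genes held it (Psmb5, Psmb6, Psmc6, Psmd12, Psmd9 and Psme4), beside 15.1% of all genes. In the strongest promoter peak it was present at 11 of 46 genes (23.9%), beside 13.1%. In footprints of both libraries it was found at 3 genes, Psmb3, Psmb5 and Psmd9, beside 3.27%. The footprints are shown over the span of both libraries, with the match in capitals.
Psmb5, chr14:54618027-54618046, minus strand: gttgTGACGTCGCggcgttg
Psmd9, chr5:123228156-123228177, plus strand: cggTGACCCCGCccacttccaa
Psmb3, chr11:97702534-97702574, plus strand: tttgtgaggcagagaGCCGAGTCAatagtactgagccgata
The match at Psmb3 reads on the opposite strand and lies 846 bp before the start, in the separate upstream peak. At Psmb5 it lies 16 bp before the start, and at Psmd9 27 bp before the nearest of several annotated starts. At Psmd9 the same footprint also holds a GC box that overlaps the match, so the letters do not tell the motifs apart.

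CCGGAAG, the core bound by ETS factors, was in 15 of 41 windows (36.6%), beside 13.6% of all genes and 20.8% of those that were also open, with promoter peaks in both libraries. Among the strongest promoter peaks 18 of 46 (39.1%) held it, beside 18.1%. The genes in the windows came from the alpha ring, the base, the other regulatory particle subunits, the activators and the chaperones, with Psmc3ip besides. None of the 4 constitutive beta ring genes with a window held it, although the strongest peak of Psmb7 did. In promoter-peak footprints of both libraries, however, it was centred at 3 genes only (Psma6, Psme3 and Psme4), beside 3.69%. At none of these did the footprints of both libraries hold the whole match. At Psmc2 all 7 bases of CCGGAAG before another RefSeq start lay in footprints of both libraries, outside the promoter peaks counted here. At Psme3 it lay 104 bp before the start in this footprint, shown with the match in capitals.
Psme3, chr11:101316093-101316124, plus strand: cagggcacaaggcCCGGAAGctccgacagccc

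GGGCGG, the GC box of SP and KLF factors, was the most frequent match, in 22 of 41 windows beside 51.6%. Of the 39 windows at genes with promoter peaks in both libraries 22 held it, beside 70.4%, and of the strongest peaks 23 of 46, beside 59.1%. In footprints it was at 15 of 46 genes beside 34.3%. CCAAT, the NF-Y box, was in 14 windows beside 41.7% and in footprints of Psmb2, Psmb3, Psmc3ip and Psmd4 beside 6.90%. TGACGTCA, the palindromic CRE of CREB and ATF factors, was in 0 windows beside 2.69% but in footprints of Psmb2 and Psmb8 beside 3.31%. The match at Psmb8 lies 56 bp before the GENCODE start, outside the RefSeq window, in a footprint of 29 bp in replicate 1 and 34 bp in replicate 2.
Psmb8, chr17:34197653-34197686, plus strand: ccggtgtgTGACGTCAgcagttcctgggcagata
GCATGCGC, the nuclear respiratory factor 1 core, was in 3 windows beside 4.14%, or 6.51% of windows at genes with promoter peaks in both libraries. In footprints it was at Psma2 and Psmg1 beside 4.84%. At Psma2 the palindrome is matched on both strands within the same footprint, 119 bp before the start on the gene's strand.
Psma2, chr13:14613101-14613130, plus strand: cgcaggcccctcttgcGCATGCGCaagggt

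The interferon, STAT, NF-kappaB, heat shock and AP-1 motifs were in footprints of at most 1 gene of the set each, and of under 1% of all genes with a promoter peak. GAAANNGAA, the interferon-stimulated response element core, was in 7 windows (17.1%) beside 9.48%, or 8.00% of the windows at genes with promoter peaks. In the strongest peak 5 of 46 genes (10.9%) held it beside 3.63%, and in footprints 0 beside 0.352%. None of the 7 was Psmb8, Psmb9 or Psmb10; they were Psmb3, Psmb4, Psmc2, Psmd4, Psmd9, Psme1 and Psmg4. TTCNNNGAA, the STAT site, was in the windows of Psmb8, Psmd2 and Psmg1 beside 9.04%, and in a footprint of Psmd3 beside 0.609%. GGACTTTCC, an NF-kappaB site, was in 0 windows beside 0.447% and 0 footprints beside 0.0172%. The heat shock element core GAANNTTC was in 3 windows beside 8.46% and 0 footprints beside 0.292%. TGAGTCA, the AP-1 site, was in the window of Psmd9 beside 5.42% and in 0 footprints beside 0.0343%. The YY1 core ATGGCGGC was in 2 windows beside 3.69% and in a footprint of Psmd11 beside 1.65%. The E-box CACGTG was in 4 windows beside 9.20% and 0 footprints beside 1.88%. TATAAA was in 4 windows beside 14.4% and 0 footprints beside 0.498%. At genes with promoter peaks in both libraries, 4 of 39 windows held TATAAA, beside 7.95% of all such windows. The heat shock core was in 3 of these 39 beside 6.91%, and the YY1 core in 2 beside 5.96%. For these motifs and the E-box, the direction of the difference from all genes turned when only such windows were counted.

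**Figure D4:**
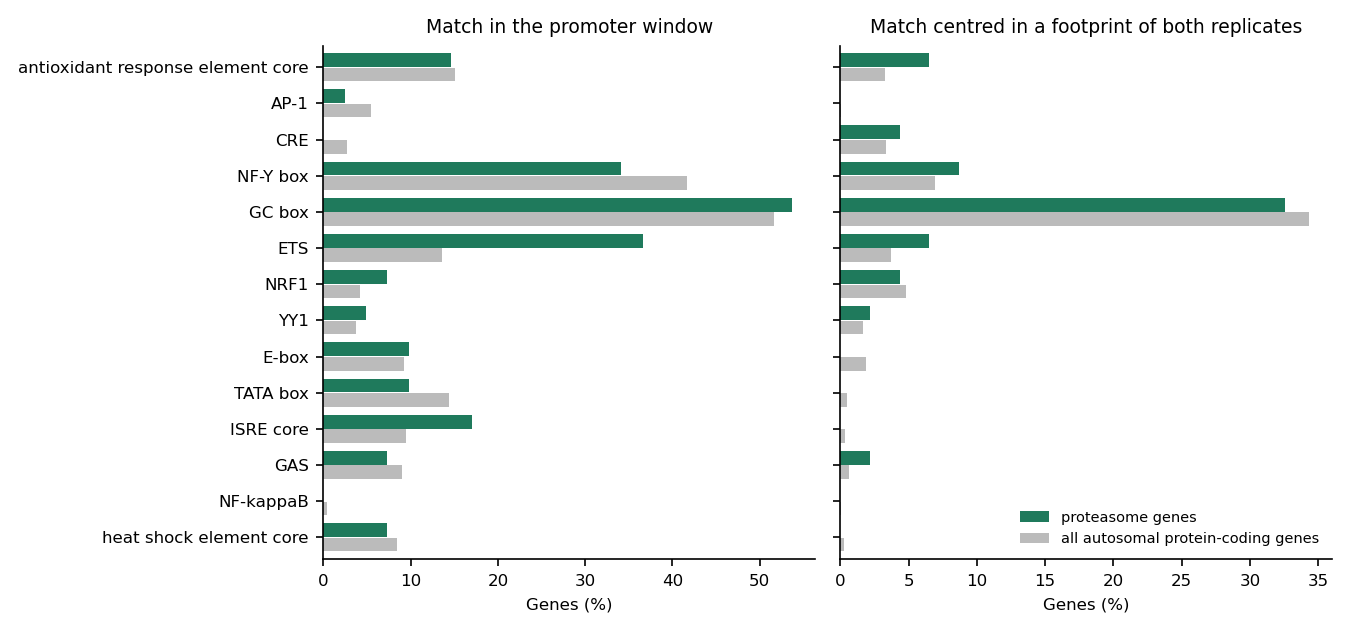
Percent of genes (horizontal axes) with a match to each motif in the promoter window (left) and centred in a promoter footprint of both replicates (right). Proteasome genes are in green and autosomal protein-coding genes in grey. On the left these are the 41 and 15670 genes with a RefSeq window, on the right the 46 and 11656 genes with promoter peaks in both replicates. The ETS core differs most on the left, 36.6% against 13.6%, and is at 3 of 46 genes on the right.

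Other genes of the ubiquitin and proteasome pathway were described by the same measures. All 28 that matched an autosomal protein-coding gene had a narrow promoter peak in both libraries, beside the 56.0% of all genes, with a median strength of 3.60 and 3.37 (3.48 ± 0.167). The highest by mean were Rad23b, which carries ubiquitinated proteins to the proteasome (8.08 and 6.04), Zfand2a, a stress-induced regulator (7.48 and 5.83), and the polyubiquitin gene Ubb (6.95 and 4.64). In replicate 1 these were above every gene of the set, the highest of which was Psmb3 with 6.20. In replicate 2 Rad23b and Zfand2a were above the highest gene of the set, Psmd3 with 5.59, and Ubb was below it. The lowest by mean were the transcription factor gene Nfe2l2 (1.44 and 1.64) and Ecpas, which encodes a proteasome adaptor (1.48 and 1.63), with nearly the same values, whereas Nfe2l1, the factor known to raise proteasome genes, read 4.81 and 3.81.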

How the data were processed

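DNase-seq of 2 libraries in 1 group was analysed from the deposited files. Per the notes deposited with the files, the authors called peaks and footprints on each library alone, on mm10; for aligner, peak caller and versions: not given in the sources used here. Peak strength is the deposited signal value, with no stated scaling. The authors' FDR table lists q-values up to 0.0499. The footprint files' constant value was not used.

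Genes came from GENCODE M21. Promoter windows and sequences came from RefSeq on GRCm38.p6, and 41 of 49 genes had a window. Overlap meant at least 1 shared base; a percentile is the share of genes with a promoter peak of lower strength. Paaf1 and AI314180 matched no gene of the annotation used. Python 3.11.15, pandas 2.3.3 and pysam 0.24.0 were used, and the overlap and motif code was tested on simulated data. Alleles are not separated in these files.

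The gene family, lists, motifs and tests were chosen with earlier results of these data known, although the rule for its members uses symbols and positions only. Named genes were the immunoproteasome, thymus and testis genes and Psmc3ip, the highest and lowest of each role, genes without a promoter peak or over 1.5-fold apart, genes with TGACNNNGC in footprints, and the 3 highest and the lowest of the other pathway genes; others were named after their values were seen. Alternatives covered the peak list, window, starts, overlap, scaling and each library left out.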

Additional observations from a re-analysis of the deposited data

How the results depend on the processing

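The promoter and footprint counts stayed at 46 under every alternative run except the outermost start only, which gave 42 and lost Psma6, Psmd5, Psmd9 and Psmf1, and the strongest 50% of peaks, which gave 45 and lost Psme1. The median strength of the set, 3.07, became 3.53 when all peaks in the window were summed and 2.85 to 3.29 with 1 library left out; under the sum the all-gene medians were 3.53 and 3.18, against 3.57 and 3.49 for the set. Genes over 1.5-fold apart went from 4 to 1 after division by the library median, and from 6.43% to 3.77% of all genes. The mean log2 ratio of Psmb10 over Psmb7 was 0.24, 1.25 with summed peaks and -0.24 with the outermost start, the last 2 chosen after seeing the data; Psmb10 has several annotated starts and peaks. Of the alternatives for these results, 44 stayed within 1.5 times a count or 1 SD, 3 moved beyond that and 1 reversed. The 44 include those that gave 42 and 45 and those with 1 library left out. Leaving out a library could not move a strength or ratio by more than the SD of 2 libraries. Psmb5, Psmb6, Psmb8 and Psmb9 had 1 promoter peak in each library, so summing peaks could not change them. Those settings were no test of these results. Of 59 settings for single motifs and genes 10 moved beyond these limits, among them TGACNNNGC, in 6 windows and 11 peaks, and TATAAA, in 4 windows and 1 peak. No paired analysis was possible because there is only 1 group, so replicate numbers pair no groups; ratios between genes are within each library. Depth is unknown from these files, so a missing peak is not a measured absence.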

Other observations

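Long footprints were shared by both libraries at several of these promoters, and their share over all genes was not computed. The longest was at Psmg3, where both libraries marked the same 53 bp, followed by 45 common bp at Psmd3, 39 at Psmb3 and 38 at Psma1. At Psmb3, 3 footprints shared at least 20 bp between the libraries, one of them in the upstream peak. The footprint at Psmb3 that holds the 39 common bases lies 55 bp before the start and contains a CCAAT box.
Psmb3, chr11:97703325-97703363, plus strand: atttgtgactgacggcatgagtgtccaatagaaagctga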
